A study of Mus musculus with 12 samples.

Results

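Oocytes carrying a Marf1 mutation that the labels call D272 (D272Mut) were compared with wildtype oocytes (WT) by RNA sequencing, with 4 libraries of each genotype among the 12 of the study. The remaining 4 libraries carry a gene trap of Marf1 (GTMut) and serve below to show where D272Mut differs from another Marf1 mutant. All 12 came from C57BL/6 mice of 3 weeks primed with 5 IU of PMSG, which stimulates follicles to grow, and taken 46 hours later. Each library was made from 80 fully grown oocytes at the germinal vesicle stage. The labels do not say which amino acid replaces aspartate in D272Mut, whether both alleles carry it, how many animals gave the oocytes or whether replicate libraries are from different animals. The p-values therefore rest on the spread among libraries, and that spread may be technical. Of 24254 genes in the authors' table, 12668 reached an FPKM of at least 1 in any of the 8 WT and D272Mut libraries and were tested. FPKM counts sequenced fragments for each kilobase of a transcript, relative to all mapped fragments. Levels are FPKM, given as mean ± SD of the 4 libraries of a genotype where not listed by library, in the order of replicates 1 to 4. Differences are log2 fold changes of FPKM + 1, so that changes of low genes are understated, with the standard error of the limma fit. A gene was called when its limma p, adjusted by the Benjamini-Hochberg method over the 12668 genes, was under 0.05.

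MARF1 is a large oocyte protein with an NYN domain, a fold found in ribonucleases, followed by RNA recognition motifs and a row of LOTUS domains, which bind RNA. In the mouse, females without functional MARF1 are infertile because their oocytes stay arrested at the germinal vesicle stage, and the catalytic subunit gene Ppp2cb of protein phosphatase 2A is a known transcript that MARF1 holds down. A fully grown oocyte makes little new RNA, so its transcripts are largely a store laid down during growth, and a level reflects both synthesis and decay. NYN ribonucleases coordinate metal ions through acidic residues such as aspartate.

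The gene stretch around codon D272 is shown because it is the named site of the mutation. Marf1 lies on chromosome 16 of GRCm38 (mm10) on the minus strand. In the GENCODE M21 annotation, codon D272 reads as aspartate in both protein-coding transcripts examined, and the labels do not say from which one the number counts. In the principal transcript, of 27 exons and 1736 codons, codon D272 lies in exon 3, at chr16:14152038-14152040. In a shorter transcript, of 11 exons and 576 codons, codon D272 lies in exon 8 at chr16:14146085-14146087 and is the same codon as number 451 of the principal transcript. Each sequence below is the reference coding strand, 5′ to 3′, with the codon in capitals.
Marf1 principal transcript, codon D272: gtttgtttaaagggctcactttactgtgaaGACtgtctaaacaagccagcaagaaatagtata
Marf1 shorter transcript, codon D272: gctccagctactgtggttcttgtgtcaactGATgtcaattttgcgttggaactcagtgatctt

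Relative sequencing depth, read from the FPKM that 1 fragment is worth in low genes, ranged from 1.38 to 2.13 in WT and from 1 to 1.89 in D272Mut, with D272Mut replicate 1 set to 1. The absolute depth is unknown. Across genes, Pearson's r was 0.969 to 0.989 between WT libraries, 0.963 to 0.983 between D272Mut libraries and 0.818 to 0.836 between WT and D272Mut. All 10 oocyte markers were detected, with a summed level of 12233 to 12309 FPKM in WT and 9871 to 9980 in D272Mut. Of 18 granulosa and cumulus cell markers 9 reached an FPKM of 1, and their summed level was 46.5 to 50.6 in WT and 142 to 145 in D272Mut. Most of that sum came from Nr5a2, Kitl and Cyp19a1, and without these 3 genes it was 5.39 to 7.77 and 5.62 to 8.04. These 3 are the most abundant of the list, so a low sum without them follows from the choice. Of the 9 tested markers 3 were called higher and 3 lower, and whether somatic cells were carried over was not tested. Of 16 markers of theca, stroma, blood and vessels 9 reached an FPKM of 1, with a summed level of 27.2 to 31.6 in WT and 22.1 to 30.3 in D272Mut. Lyz2, a macrophage gene, stood at 2.43, 0.959, 0.572 and 0.570 FPKM in WT and at 5.14, 1.73, 5.19 and 9.99 in D272Mut, so that its groups overlapped. In a library of pooled oocytes, fewer cells with a transcript and less of it per cell cannot be told apart.

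Marf1 itself stood at 26.2, 25.5, 26.4 and 25 FPKM in WT and at 53, 54.5, 52 and 53 in D272Mut. Every D272Mut library was therefore above every WT library, by 27.3 FPKM on average, with p = 0.0286 in a two-sided exact permutation test, the smallest value that the 70 arrangements allow. The log2 fold change was 1.01 ± 0.05 (adjusted p = 2.71e-10). An FPKM of the whole gene does not show whether the mutant codon is present. Ppp2cb was at 1.47, 0.986, 1.33 and 1.77 FPKM in WT and at 45.6, 54.7, 48.7 and 46.8 in D272Mut, a log2 fold change of 4.39 ± 0.09 (adjusted p = 1.56e-14). The groups were far apart, with exact permutation p = 0.0286. The listed locus (chr8:33599619-33641976) overlaps that of Ubxn8, and whether reads of these genes were mixed was not tested.

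Of 6 tested genes with an NYN or LOTUS domain 2 were higher and 1 was lower, with a median log2 fold change of 0.07, and quantile normalization gave 2 higher and 3 lower. The share called was 50%, below the 77.0% of all tested genes. Zc3h12a, which encodes the ribonuclease Regnase-1, was at 0 to 0.183 FPKM in WT and 2.24 to 2.66 in D272Mut (1.67 ± 0.09). N4bp1, which holds an NYN ribonuclease domain, rose from 98.9 ± 5.6 to 155 ± 8.3, and Tdrd5, a LOTUS and Tudor protein of germ cells, fell from 31.2 ± 2.0 to 15.2 ± 1.4. Tdrd7 was at 4.68 ± 0.059 and 4.02 ± 0.57 and did not pass (adjusted p = 0.0881), though it did without D272Mut replicate 4 (adjusted p = 0.0302).

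Among 18 tested PP2A genes, 7 were higher and 6 lower (quantile normalization gave 7 and 9, median-ratio rescaling 9 and 4), and their median was -0.02. The share called, 72.2%, was near the 77.0% of all tested genes. Both catalytic subunit genes rose. Ppp2ca was at 119, 114, 120.2 and 111 FPKM in WT and 183, 175, 189 and 185 in D272Mut, a log2 fold change of 0.65 ± 0.04 (adjusted p = 7.21e-10). The groups did not overlap. The scaffold subunit genes went apart, with Ppp2r1a falling from 24.1 ± 1.3 to 14.6 ± 0.90 and Ppp2r1b, whose locus overlaps Sik2, rising from 7.26 ± 0.43 to 28.0 ± 1.9. Of the regulatory subunit genes, Ppp2r3a rose from 0.633 ± 0.13 to 4.49 ± 0.51 and Ppp2r2b fell from 25.7 ± 2.9 to 12 ± 1.2.

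Over all tested genes, 77.0% were called, with 36.6% of the tested genes higher (4633 genes) and 40.4% lower (5119 genes) in D272Mut, so a count of members in a list is read against these shares. All D272Mut libraries were above all WT libraries for 33.9% of the genes and below them for 36.1%. The median log2 fold change was -0.07. Rises were larger than falls. By 2-fold or more, 2324 genes rose (18.3%) and 766 fell (6.05%), while 1046 genes rose and 45 fell at least 4-fold, and 140 rose and 8 fell at least 16-fold. After quantile normalization the 2-fold counts were closer, 1907 higher and 1544 lower. Of the called genes 47.5% were higher. Median-ratio rescaling moved the median by 0.09 and made that share 53.2%, and quantile normalization moved the median by -0.20 and made it 37.3%. The authors' deposited table called 8571 genes, of which 8341 were also called here, 97.3% of theirs and 85.5% of those called with limma, and none in opposite directions.

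**Figure D1:**
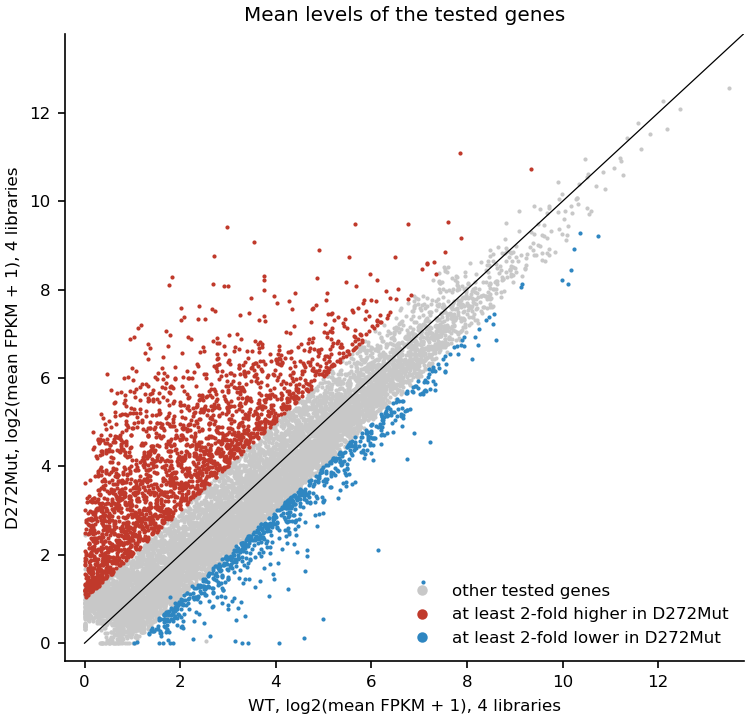
Mean level of each gene in WT (x axis) and D272Mut (y axis), both as log2(mean FPKM + 1) over 4 libraries; each point is 1 of 12650 genes, with 18 microRNA, snoRNA and other small RNA genes left out, and the line marks equal levels. Genes above the line reach further from it than genes below it, with 1046 genes at least 4-fold higher and 45 at least 4-fold lower.

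Some genes went from near 0 to a clear level, or the reverse. In D272Mut, 222 genes were at 5 FPKM or more in every library that were under 1 in every WT library. The reverse held for 12 genes, namely Abcc4, Arhgef15, Cfap58, Defb48, Fam124a, Fmo4, Gsto2, Manba, Olfr1300-ps1, Slc26a5, Slc39a8 and Vmn1r112. WT libraries held 10701 to 10769 genes at an FPKM of at least 1 and D272Mut libraries 11298 to 11384. Since the level in WT is part of the fold change, genes were also split by their mean over the 8 libraries. Called falls made up 21.9% of genes with a mean under 1 and 59.7% of those with a mean of at least 100, while rises of at least 2-fold were most frequent at a mean of 5 to 20 (22.8%).

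The largest rises included thyroid hormone, Wnt and transcriptional regulators. Dio3, the deiodinase that inactivates thyroid hormone, was at 2.34, 3.78, 2.39 and 1.63 FPKM in WT and 289, 325, 318 and 311 in D272Mut (log2 fold change 6.50 ± 0.13, adjusted p = 1.21e-14). Id3, which blocks helix-loop-helix transcription factors, was at 6.58, 8.35, 7.38 and 5.22 in WT and 676, 741, 653 and 666 in D272Mut (6.45 ± 0.10). For both genes each D272Mut library was far above the highest WT library. Cdc42ep4, a Cdc42 effector of the actin cytoskeleton, was at 2.01 to 2.89 in WT and 262 to 288 in D272Mut (6.34 ± 0.06). The germline gene Tex19.2 was at 4.46 to 7.36 and 368 to 472 (6.07 ± 0.12). Wnt9a, a Wnt ligand, stood at 0.825, 0.924, 1.30 and 1.62 against 130.1, 152, 143 and 134, and Fzd5, a Wnt receptor, at 0.664, 0.949, 1.04 and 1.03 against 104, 131, 119 and 111. Ligand and receptor thus both went from about 1 FPKM to over 100, with log2 fold changes of 6.04 ± 0.10 and 5.93 ± 0.07. The other 6 of the 12 were Slc45a4, a sugar transporter relative (6.00 ± 0.06), Fam109a (5.90 ± 0.06), the immediate early gene Ier2 (5.56 ± 0.09), the zinc finger gene Zfp707 (5.53 ± 0.05), Cables1, which links cyclin-dependent kinases to other kinases (5.46 ± 0.06), and Zfp395 (5.45 ± 0.07). Of these, Cables1 overlaps the predicted gene Gm6277.

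The largest falls took several genes to near 0. Pnpla3, a lipase of lipid droplets, was at 127, 129, 146 and 133 FPKM in WT and 2.10, 1.76, 1.33 and 1.17 in D272Mut (log2 fold change -5.71 ± 0.09, adjusted p = 2.66e-15). Manba, the lysosomal beta-mannosidase, was at 29.2, 35.2, 31.9 and 27.3 in WT and 0.655, 0.230, 0.501 and 0.485 in D272Mut (-4.44 ± 0.11). Slc39a8, a zinc and manganese importer, was at 16.4, 24.8, 27.9 and 22.8 against 0.159, 0.151, 0 and 0.0482 (-4.44 ± 0.14). Manba (chr3:135485609-135571403) and Slc39a8 (chr3:135825277-135888572) lie close together on chromosome 3. Listed at 0 in all 4 D272Mut libraries were 3 further genes, namely Defb48, a beta-defensin gene, at 18.8, 11.8, 16 and 16.2 in WT, Gsto2, a glutathione transferase gene, at 7.95, 10.3, 10.3 and 10.5, and Fam124a at 9.13, 9.53, 7.78 and 8.80. Defb48 and Fam124a are on chromosome 14 (chr14:62977522-62984510 and chr14:62555735-62608485). Oog1, an oogenesin, was at 126, 111, 150.0 and 129 in WT and at 0, 0, 1.71 and 0.493 in D272Mut (-6.51 ± 0.57), but its locus overlaps 7 other tested genes and reads may be split among near-identical copies.

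Among the remaining falls of the first 12, Arhgef15, an exchange factor for small GTPases, was at 6.78 to 8.95 FPKM in WT and 0 to 0.0777 in D272Mut (-3.09 ± 0.11). Bik, a BH3-only killer protein of the BCL2 family, was at 19, 22, 29.0 and 25.7 against 3.50, 4.01, 2.26 and 1.93 (-2.69 ± 0.17). Chac2, an enzyme of glutathione breakdown whose locus overlaps Asb3, fell from 18.2 ± 2.8 to 1.35 ± 0.38. Tmem87a, which overlaps 2 tested genes, fell from 13.6 ± 1.1 to 1.09 ± 0.32, and the pseudogene Olfr1300-ps1 from 9.18 ± 0.90 to 0.538 ± 0.18. The 12 falls were chosen among genes whose WT and D272Mut libraries do not overlap, so their separation follows from the choice.

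**Figure D2:**
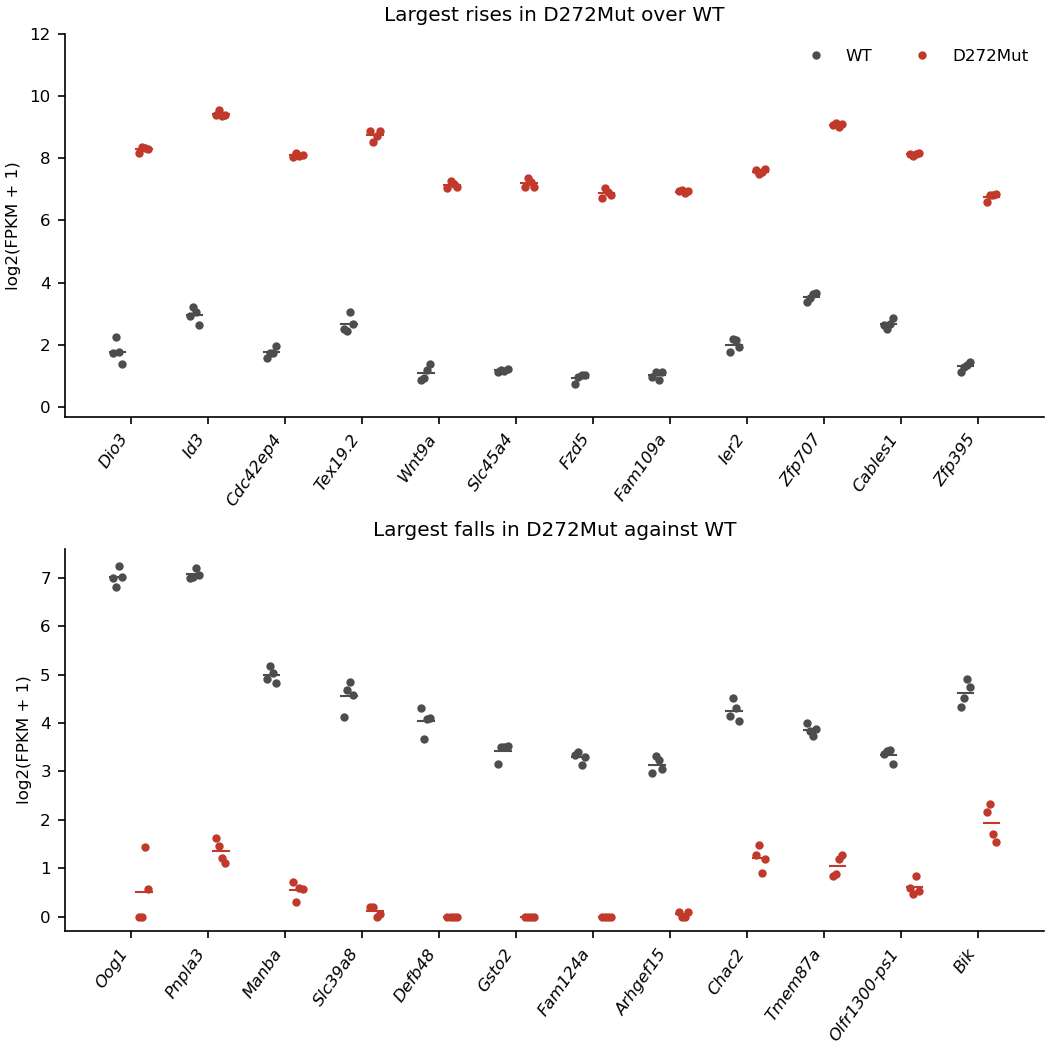
Level of the 12 largest rises (top) and the 12 largest falls (bottom) as log2(FPKM + 1) in each WT and D272Mut library; points are libraries and short lines are the mean of 4. The groups are separate in every gene shown because the genes were chosen that way. Defb48, Gsto2 and Fam124a are at 0 in all 4 D272Mut libraries.

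Meiosis in the arrested oocyte is held by cAMP, which the oocyte makes through the receptor GPR3, the G protein Gs and adenylyl cyclase and degrades through phosphodiesterase 3A. Of 18 tested genes of this system 12 were lower and 3 higher, with a median of -0.44. All 3 genes of receptor and G protein fell. Gpr3 was at 159, 151, 159 and 158 FPKM in WT and 88.6, 105, 111 and 89.6 in D272Mut (-0.67 ± 0.07, adjusted p = 7.36e-07), without overlap. Gnas, which encodes Gs alpha and overlaps Nespas, fell from 137 ± 8.8 to 83.2 ± 4.3, and Gpr12 was at 2.27 in WT and 1.05 in D272Mut on average. The 4 tested phosphodiesterase genes of the list were also lower, with Pde3a at 43.8, 40.7, 39.0 and 41.8 against 25.4, 29.1, 26.8 and 25.3 (-0.61 ± 0.05). Adcy6, an adenylyl cyclase, went the other way, from 1.06, 1.39, 1.16 and 1.56 to 29.0, 34.2, 31.5 and 29.1 (3.80 ± 0.07, adjusted p = 1.34e-14). Pde4b, a cAMP phosphodiesterase gene outside the list that was looked up after its values were seen, rose from 0.563 ± 0.19 to 7.36 ± 0.88 (2.42 ± 0.11). Adcy3 was under 1 FPKM in every library and was not tested. Rgs2, which damps G protein signals, fell from 356 ± 13 to 239.6 ± 4.2.

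Entry into M phase depends on CDK1 with cyclin B, activated by CDC25B and opposed by the kinases WEE2 and WEE1. Of 23 tested genes 6 were higher and 10 lower with a median of -0.09 (quantile normalization gave 6 and 16, median-ratio rescaling 8 and 7). Cdk1 was at 12.8 ± 1.5 FPKM in WT and 10.8 ± 2.1 in D272Mut and Cdc25b at 35.5 ± 0.58 and 34.4 ± 0.75, and neither passed (adjusted p = 0.0688 and 0.389). Without D272Mut replicate 1, Cdk1 passed (-0.35, adjusted p = 0.00161). The Cdc25b locus overlaps 7 tested genes. Ccnb1, cyclin B1, rose from 291 ± 8.3 to 326 ± 19 (0.16 ± 0.04). The oocyte kinase gene Wee2 fell from 158 ± 2.3 to 103 ± 3.5, while its somatic relative Wee1 was at 18.2, 16.6, 16.6 and 17.4 in WT and 79.2, 97.0, 87.5 and 80.7 in D272Mut (2.26 ± 0.06, adjusted p = 2.49e-13). Wee1 and Wee2 therefore went in opposite directions. Mastl, the Greatwall kinase that restrains PP2A at M phase, fell from 56.8 ± 1.5 to 33.6 ± 1.2, and Ensa, its substrate, rose from 32.4 ± 2.0 to 44.8 ± 3.9. In the MOS pathway, Mos rose from 834 ± 12 to 923 ± 39 (0.15 ± 0.04), Mapk3 fell from 104 ± 1.8 to 59.1 ± 2.0, and Rps6ka2, an RSK kinase, rose from 0.0687 ± 0.035 to 3.75 ± 0.19.

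The anaphase-promoting complex and the spindle checkpoint were lower in 18 of 30 tested genes and higher in 5, with a median of -0.27. None of the 12 checkpoint genes rose and 9 fell, among them Mad2l1, from 68.2, 74.6, 73.3 and 65.8 FPKM to 45.6, 48.2, 46.8 and 47.4 (-0.57 ± 0.05). Aurkc, the Aurora kinase of germ cells, fell from 76.9 ± 2.8 to 47.7 ± 1.5 and Cdca8, borealin, from 97.3 ± 5.6 to 58.8 ± 3.9. The activator gene Fzr1, which encodes the CDH1 protein that keeps cyclin B low in the arrested oocyte, rose from 54.0 ± 3.7 to 79.3 ± 3.8, whereas Cdc20 was at 65.7 ± 2.3 and 64.2 ± 3.5 and did not pass (adjusted p = 0.547). Of the inhibitors, Fbxo43 (EMI2) fell from 60.8 ± 2.1 to 36.8 ± 1.9 and Fbxo5 (EMI1), at 138 ± 4.9 and 145 ± 11, did not pass (adjusted p = 0.223), but Fbxo5 was called higher after median-ratio rescaling (0.18, adjusted p = 0.00489) and quantile normalization (0.15, adjusted p = 0.0124). Cdc23, a core subunit whose locus overlaps Brd8 and Kif20a, rose from 0.759 ± 0.24 to 9.56 ± 1.2.

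Cohesin genes split evenly, 7 higher and 7 lower of 14 tested. Smc1b, the meiotic SMC subunit, fell from 2.90, 2.69, 2.44 and 2.57 FPKM to 0.788, 0.704, 0.661 and 0.596 (-1.11 ± 0.09, adjusted p = 5.48e-08), and Sgol2a, the shugoshin that recruits PP2A to centromeres, from 18.6 ± 0.69 to 8.10 ± 0.61. Rad21, the mitotic kleisin, rose from 54.7 ± 1.3 to 115 ± 3.3, and the regulators Pds5a and Pds5b rose from 1.08 ± 0.38 to 6.40 ± 0.57 and from 2.67 ± 0.22 to 8.27 ± 0.42. Smc1a, the mitotic counterpart of Smc1b, also fell, from 5.94 ± 0.40 to 3.33 ± 0.22 (-0.68 ± 0.09). Rec8, the meiotic kleisin, was listed at 0 in all 8 libraries.

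Genes of the egg coat, the subcortical maternal complex and the oogenesins were mostly lower, but so were abundant genes in general. Of all tested genes with a mean WT level of at least 100 FPKM, 71.9% were called lower, with a median of -0.41. By the mean over the 8 libraries, 59.7% of genes at that level were called lower, with a median of -0.25. Of 15 tested zona and secreted factor genes 11 were lower and 1 higher, with a median of -0.37. Zp3, a coat glycoprotein, was at 752, 766, 803 and 796 FPKM in WT and 627, 599, 578 and 581 in D272Mut (-0.39 ± 0.04, adjusted p = 6.23e-07), and the growth factor gene Gdf9 at 5592 ± 49 and 4319 ± 46 (-0.37 ± 0.03). After quantile normalization neither passed, with Zp3 at -0.02 (adjusted p = 0.739) and Gdf9 reversed to 0.14 (adjusted p = 0.875). The fall of Kit, the receptor for KIT ligand, was larger, from 99.9 ± 3.8 to 34.7 ± 4.7 (-1.51 ± 0.07), and Gja4, the connexin of oocyte gap junctions, was the member that rose, from 1014 ± 20 to 1154 ± 35 (0.19 ± 0.04).

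All 17 genes of the subcortical maternal complex and the oocyte Nlrp family were called, 15 lower and 2 higher, with a median of -0.81. Nlrp5 (MATER) fell from 449 ± 7.7 to 337 ± 4.8 FPKM and Ooep, at 841, 849, 889 and 797 in WT, to 532, 458, 454 and 500.2 (-0.80 ± 0.05). Tle6 fell from 519.8 ± 14 to 338 ± 1.4. Their partner Khdc3 was among the rises, from 619, 627, 667 and 664 to 1745, 1593, 1672 and 1792 (1.40 ± 0.04, adjusted p = 1.19e-12), so members of 1 protein complex went apart. Nlrp9c fell most, from 103 ± 4.3 to 37.3 ± 0.93 (-1.43 ± 0.04), while Nlrp4c rose from 7.94, 9.12, 9.31 and 9.37 to 77.2, 77.2, 74.6 and 81.3 (2.98 ± 0.05). Near-identical Nlrp copies could share reads. The 4 oogenesins, Rfpl4 and the oocyte linker histone gene H1foo were lower in 6 of 6, with a median of -1.43, of which H1foo was not called after quantile normalization (-0.01, adjusted p = 0.919). Rfpl4, a RING finger gene of oocytes, was at 1743, 1675, 1726 and 1649 in WT and 617, 505, 593 and 651 in D272Mut (-1.53 ± 0.06).

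Of 10 tested DNA methylation genes 4 were higher and 5 lower (5 and 5 after median-ratio rescaling, 4 and 4 after quantile normalization). Dnmt1, the maintenance methyltransferase, was at 268, 267, 279 and 279.8 FPKM in WT and 78.2, 94.9, 86.5 and 79.2 in D272Mut (-1.68 ± 0.06, adjusted p = 3.98e-12). Its recruiter Uhrf1 fell from 246 ± 6.1 to 121 ± 4.4, but the related Uhrf2 rose from 0.548, 0.525, 1.25 and 0.943 to 36.4, 28.8, 31.8 and 30.2 (4.19 ± 0.11, adjusted p = 3.52e-13). The de novo enzyme gene Dnmt3a fell from 37.3 ± 1.1 to 30.7 ± 1.8, its cofactor Dnmt3l rose from 53.6 ± 1.7 to 66.2 ± 6.4, and Tet3, which oxidises methylcytosine in the zygote, fell from 104 ± 2.4 to 49.6 ± 3.2. Thus the most abundant maintenance genes fell, and a paralog that was low in WT rose.

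Polycomb and deacetylase genes showed the same mixture. Among 42 tested histone-modifying genes 23 were higher and 17 lower, with a median of 0.26 (17 and 18 under quantile normalization). In Polycomb, 7 of 14 rose and 7 fell. Cbx8, a chromobox subunit of Polycomb repressive complex 1, was at 2.35, 2.18, 2.44 and 2.16 FPKM in WT and 137, 129.6, 134 and 135 in D272Mut (5.36 ± 0.04, adjusted p = 2.72e-17). Cbx7 rose from 1.70 ± 0.24 to 44.9 ± 1.7 and the ubiquitin ligase gene Ring1 from 0.646 ± 0.17 to 19.3 ± 2.5. By contrast, Ezh2 and Eed of repressive complex 2 fell, Ezh2 from 63.4 ± 1.7 to 30.1 ± 1.6 and Eed from 61.0 ± 2.9 to 43.9 ± 1.6. Of 9 deacetylase genes 7 were higher and 2 lower, with Hdac11 at 0.561, 1.61, 1.09 and 0.828 against 61.4, 61.5, 59.0 and 61.6 (4.96 ± 0.12). Hdac2 fell from 20.6 ± 1.4 to 13.9 ± 0.66. Sirt1, an NAD-dependent deacetylase, rose from 26.3 ± 1.9 to 191 ± 4.8. The lysine demethylase gene Kdm5a, which overlaps Ccdc77, rose from 0.344 ± 0.060 to 11.7 ± 0.80, and Kdm1b, which clears histone H3 lysine methylation at imprinted regions during oocyte growth and overlaps Dek, from 82.5 ± 4.5 to 178 ± 1.2.

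Transcription factors of the oocyte were 8 higher and 9 lower of 18 (7 and 6 under quantile normalization). Sohlh1, a factor of early oocyte growth, was at 0 to 0.149 FPKM in WT and at 7.09, 6.59, 4.54 and 6.34 in D272Mut (2.68 ± 0.14, adjusted p = 3.21e-10). Nobox, of the same programme, rose from 193 ± 6.9 to 366 ± 8.3 and Tbpl2, the TATA-binding protein relative of growing oocytes, from 5.19 ± 0.85 to 47.9 ± 1.4. Yy1 rose from 12.6 ± 1.4 to 155 ± 7.4. Figla stood at 24.5 ± 2.5 and 25.9 ± 2.9 and did not pass (adjusted p = 0.612). Lhx8 fell from 94.7 ± 1.4 to 69.6 ± 4.7, and all 3 tested Obox genes were lower, Obox1 falling from 1324 ± 92 to 618 ± 11.

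Id and Wnt genes had the highest median of the lists, 1.00, with 19 of 30 tested genes higher and 9 lower. Since the lists were chosen with earlier results of these data known, this rank is not a test. The median was 3.09 for Id genes and 1.35 for Wnt ligands and modulators. For the 20 Wnt receptor and core genes it was 0.27, with 10 higher and 8 lower. All 4 Id genes rose. Besides Id3, Id2 was at 1.23, 1.52, 1.36 and 1.96 FPKM in WT and 35.1, 53.3, 41.0 and 45.2 in D272Mut (4.14 ± 0.11, adjusted p = 4.17e-13), Id1 rose from 2.89 ± 0.46 to 15.4 ± 3.9, and Id4, which overlaps A330033J07Rik, was at 0.493 and 2.50 on average. Of 6 tested Wnt ligands and secreted modulators 5 were higher and 1 lower. The receptor gene Fzd8 rose from 4.74 ± 0.58 to 38.2 ± 4.2 and Ctnnb1, beta-catenin, from 171 ± 4.0 to 256 ± 7.8. The coreceptor genes fell, Lrp6 from 18.6 ± 0.84 to 9.42 ± 0.85 and Lrp5 from 43.0 ± 2.8 to 22.8 ± 0.50, as did Apc, a scaffold of the complex that destroys beta-catenin, from 33.3 ± 1.3 to 17.7 ± 1.1. Among nuclear partners of beta-catenin, Tcf7l2 rose from 0.547 ± 0.18 to 11.2 ± 0.15 and Lef1 fell from 11.9 ± 0.97 to 6.77 ± 0.76.

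**Figure D3:**
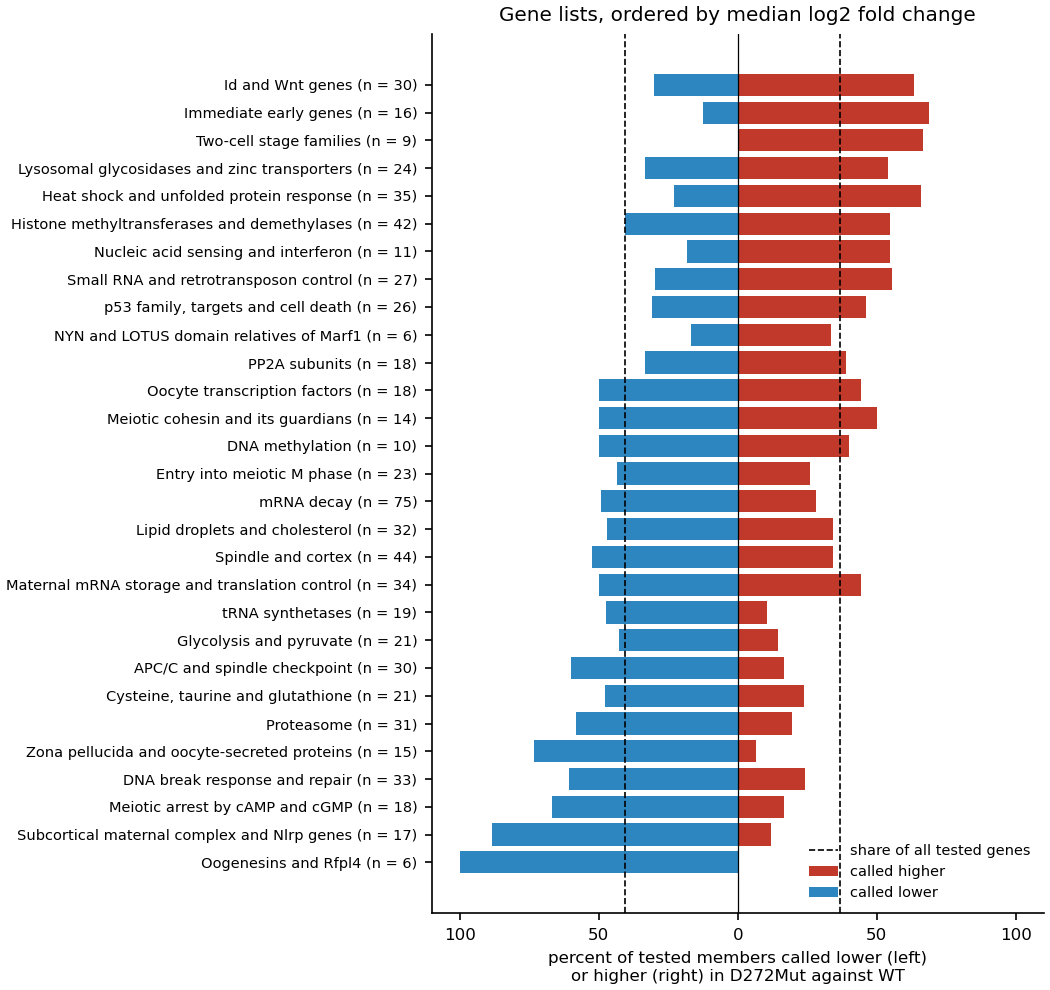
Share of the tested members of each gene list called higher (right, red) or lower (left, blue) in D272Mut against WT, with the number of tested members in brackets and lists ordered by median log2 fold change; dashed lines mark the shares over all 12668 genes, 36.6% higher and 40.4% lower. Id and Wnt genes stand at the top with a median of 1.00 and oogenesins with Rfpl4 at the bottom with -1.43. The lists were chosen with earlier results of these data known. Lists near the middle change their balance with the scaling, as given in the text.

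Maternal mRNAs are stored with proteins such as YBX2 and LSM14B and with CPEB1, which governs their tails. Of 34 tested storage and translation genes 15 were higher and 17 lower, with a median of -0.17 (15 and 14 under median-ratio rescaling). Among 13 storage genes 9 fell and 4 rose. Lsm14b fell from 791 ± 11 to 398 ± 17 FPKM, Ybx2 from 389 ± 10 to 258 ± 5.9 and Cpeb1 from 475 ± 22 to 351 ± 13, while Dazl, an RNA-binding activator of translation, rose from 186 ± 4.8 to 463 ± 27. The poly(A)-binding proteins went apart, Pabpc1 rising from 15.7 ± 1.8 to 105 ± 7.8 and the oocyte form Pabpc1l falling from 113 ± 1.8 to 77.3 ± 5.9. Larp1, a repressor of ribosomal protein mRNAs, was at 2.70, 3.27, 3.34 and 2.74 in WT and 39.3, 41.7, 43.8 and 46.3 in D272Mut (3.45 ± 0.07, adjusted p = 2.32e-14).

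Of 75 tested mRNA decay genes 37 were lower and 21 higher. The share called, 77.3%, was near the 77.0% of all genes, and the median of -0.10 was near their -0.07. Of 20 deadenylase genes 13 were lower and 5 higher. Btg4, the adaptor that brings the CCR4-NOT deadenylase to maternal mRNA, fell from 755 ± 24 to 455 ± 8.8 FPKM and its partner Cnot6l from 146 ± 6.0 to 100.1 ± 2.8, while the related Cnot6 rose from 6.96 ± 0.41 to 14 ± 0.92. The decapping enzyme gene Dcp2 fell from 13.6 ± 0.43 to 5.61 ± 0.70, and Edc3, an enhancer of decapping, rose from 0.580 ± 0.12 to 7.82 ± 1.2. The helicase gene Upf1 of nonsense-mediated decay, which overlaps Gdf1, fell from 34.8 ± 0.92 to 12.8 ± 1.00. Zfp36l2, which recruits deadenylases to AU-rich elements, was at 6.12, 6.92, 6.19 and 7.16 in WT and 251, 258, 289.6 and 278 in D272Mut (5.15 ± 0.06, adjusted p = 2.95e-16). Exosc6, an exosome subunit gene, rose from 27.7, 27.9, 31.0 and 25.5 to 289, 332, 322 and 279 (3.40 ± 0.07). The 5′ exonuclease gene Xrn1 was below 1 FPKM in every library and was not tested.

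Small RNA and retrotransposon control genes were 15 higher and 8 lower of 27, with a median of 0.20. Piwil2, a PIWI protein, was at 0.619, 0.911, 0.83 and 0.832 FPKM in WT and 19.5, 21, 18.1 and 17.8 in D272Mut (3.48 ± 0.07, adjusted p = 2.63e-14). The Argonaute genes Ago2 and Ago4 rose from 2.26 ± 0.24 to 15.3 ± 1.3 and from 0.271 ± 0.070 to 10.4 ± 1.0, and Ddx4, the germ cell helicase, from 11.8 ± 1.0 to 73.0 ± 6.3. Tex19.1, which restrains retrotransposons in mouse germ cells, rose with Tex19.2, from 89.5 ± 4.8 to 428 ± 32. Drosha, the nuclear microRNA processor, fell from 24.3 ± 2.4 to 12.2 ± 0.84 and Tdrd1, a Tudor protein, from 85.1 ± 3.7 to 53.3 ± 3.0. Dicer1, which makes the endogenous siRNAs of mouse oocytes, rose from 77.7 ± 1.7 to 88.7 ± 1.8 (0.19 ± 0.03). Retrotransposon RNA itself was not analysed here.

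Of 33 tested DNA break and repair genes 20 were lower and 8 higher, with a median of -0.39. Palb2, the partner of BRCA2, fell from 14.9 ± 0.50 to 6.45 ± 0.70 FPKM (-1.10 ± 0.09), Brca1 from 34.8 ± 1.2 to 22 ± 0.44, and H2afx, the histone variant that marks breaks, from 207 ± 9.3 to 136 ± 4.2. Chek2, the checkpoint kinase of oocyte elimination, rose from 0.291 ± 0.051 to 2.49 ± 0.64. Among 26 tested p53 and cell death genes 12 were higher and 8 lower, with a median of 0.19, but quantile normalization gave 7 and 10. Trp63, whose TAp63 form guards the oocyte genome, rose from 8.61 ± 0.80 to 17.9 ± 1.6 and Trp53 fell from 17 ± 1.8 to 12.8 ± 1.1. The p53 targets Bbc3 and Pmaip1, which encode the killers PUMA and NOXA, were below 1 FPKM in every library, and Cdkn1a fell from 1.52 ± 0.39 to 0.567 ± 0.44 (adjusted p = 0.00393). Mcl1, a survival protein of the BCL2 family, was at 11.6, 12, 15.3 and 11.5 in WT and 302, 327, 331 and 297 in D272Mut (4.54 ± 0.07, adjusted p = 2.3e-15). Every D272Mut library of Mcl1 lay above every WT library.

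Of 35 tested heat shock and unfolded protein genes 23 were higher and 8 lower, with a median of 0.46. Hspb1, a small heat shock protein, was at 8.71, 12.3, 13 and 9.59 FPKM in WT and 109, 102, 115 and 128 in D272Mut (3.28 ± 0.10, adjusted p = 2.02e-12). The factor gene Hsf2 rose from 1.85 ± 0.19 to 16.7 ± 1.3, while Hsf1 fell from 39.0 ± 1.3 to 29.0 ± 1.4. Of the sensors of unfolded protein, Eif2ak3 (PERK) rose from 2.38 ± 0.66 to 21.6 ± 0.67 and Ern1 (IRE1) fell from 115 ± 4.9 to 80.4 ± 4.7. Dnajb9, an ER cochaperone, rose from 8.06 ± 0.96 to 127 ± 4.1, whereas the ER chaperone genes Hsp90b1 and Pdia4 fell from 43.8 ± 1.4 to 29.5 ± 1.5 and from 30.8 ± 1.3 to 8.23 ± 0.88. The rises were thus not shared by all chaperones of the endoplasmic reticulum.

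Of 16 tested immediate early genes 11 were higher and 2 lower, with a median of 0.80. The lower count was 4 without D272Mut replicate 1 or without WT replicate 1, and 5 after quantile normalization. The changes in Fos and Jun, the AP-1 partners, were small in FPKM, from 0.427 ± 0.18 to 1.35 ± 0.33 and from 0.207 ± 0.070 to 1.21 ± 0.73, while Klf4 rose from 8.80 ± 0.64 to 36.9 ± 2.5. Egr1 fell from 47.0 ± 1.3 to 30.9 ± 4.5. Of 9 tested genes of families that are active at the 2-cell stage 6 were higher and none lower. Usp17lc, a deubiquitinase gene, was at 0, 0, 0 and 0.107 in WT and 5.31, 1.84, 8.30 and 8.13 in D272Mut, Usp17ld was listed at 0 in all 4 WT libraries and stood at 1.43, 0.791, 2.38 and 3.26 in D272Mut, and Zscan4c rose from 1.34 ± 0.31 to 2.92 ± 0.64. Reads of near-identical copies in these families could be shared. Among 11 tested genes of nucleic acid sensing and interferon 6 were higher and 2 lower (4 and 4 under quantile normalization). Ddx58, the RNA sensor RIG-I, fell from 6.62 ± 0.89 to 1.05 ± 0.15, and Adar, the RNA editing enzyme, rose from 16.2 ± 0.56 to 44.9 ± 3.0.

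The spindle and cortex list was 23 lower and 15 higher of 44, with a median of -0.16. Of 15 actin nucleators and motors 9 were lower and 5 higher. Fmn2, the formin that positions the meiotic spindle, fell from 73.6 ± 2.9 to 39.5 ± 3.7 FPKM and its partner Spire1 from 109.6, 106, 105 and 101 to 37.1, 36.8, 38.1 and 38.8 (-1.46 ± 0.04, adjusted p = 3.32e-13). Myo10, an unconventional myosin, fell from 20.2 ± 1.5 to 4.96 ± 0.78 and Actr2, an Arp2/3 subunit, from 56.3 ± 2.4 to 17.2 ± 1.2, but the Arp2/3 subunit gene Arpc5 rose from 20.3 ± 1.8 to 61.8 ± 4.1. Kif11, the kinesin that separates spindle poles, rose from 10.7 ± 1.2 to 16.5 ± 1.1 and Tpx2 was at 31.0 ± 1.5 and 31.1 ± 2.1 (adjusted p = 0.972).

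Of 21 tested genes of cysteine, taurine and glutathione 10 were lower and 5 higher, with a median of -0.27. Cdo1, the cysteine dioxygenase of taurine synthesis, was at 139.8, 161, 141 and 149 FPKM in WT and 19, 27.4, 23.3 and 20.7 in D272Mut (-2.67 ± 0.14, adjusted p = 6.4e-10). The cystine importer gene Slc7a11 fell from 44.2 ± 0.85 to 20.7 ± 1.3 and the taurine transporter gene Slc6a6 from 15.3 ± 0.83 to 5.67 ± 0.69. Of 32 lipid droplet and cholesterol genes 15 were lower and 11 higher, with a median of -0.13, near the shares over all genes. Insig1, which retains the sterol sensor in the ER, fell from 143 ± 6.1 to 59.3 ± 2.4.

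Zinc transporters were 11 higher and 4 lower of 18 tested. The exporter gene Slc30a1 rose from 19.8 ± 0.81 to 144 ± 5.0 FPKM and the importer gene Slc39a1 from 1.59 ± 0.55 to 28.4 ± 1.7. The importer genes Slc39a6 and Slc39a10, which mouse oocytes use to load zinc during maturation, fell from 174 ± 1.8 to 133 ± 6.4 and from 154 ± 6.6 to 92.5 ± 3.7. Of 21 glycolysis and pyruvate genes 9 were lower and 3 higher, of 31 proteasome genes 18 were lower and 6 higher, and of 19 tRNA synthetase genes 9 were lower and 2 higher (16 and 1 after quantile normalization). The shares called were 57.1%, 77.4% and 57.9%, against 77.0% of all tested genes. None of these lists was thus called clearly more often than genes in general. The higher glycolysis count was 5 without WT replicate 2 and after median-ratio rescaling. In these lists Pgam1 rose from 5.08 ± 0.38 to 50.8 ± 3.3, Psmb5 from 42.5 ± 2.0 to 161 ± 19 and Yars from 0.132 ± 0.10 to 6.57 ± 0.57, while Pkm fell from 185 ± 4.0 to 125 ± 2.5 and Iars from 38.7 ± 1.1 to 13.9 ± 0.53.

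Rises of at least 2-fold were more frequent among genes with long 3′ UTRs and few exons. Over 11822 tested protein-coding genes with an annotated 3′ UTR, the share that rose at least 2-fold was 10.0% where the 3′ UTR was under 300 bases, 20.3% from 700 to under 1300 bases, 23.8% from 1300 to under 2400 bases and 23.4% at 2400 bases or more. By exon number it went from 25.3% in genes of 1 exon to 11.4% in genes of 17 or more exons. Between the same classes, the share called lower by any amount went from 24.2% to 55.2%. The share at least 2-fold lower changed little, from 5.90% to 8.38%, and was 4.66% to 5.94% in the exon classes between. The gradient with 3′ UTR length was present within exon classes, for example 18.1%, 30.2% and 33.1% for under 700, 700 to under 2400 and at least 2400 bases in genes of 1 to 4 exons, against 8.73%, 16.7% and 18% in genes of 11 or more. It was also present at like levels, with 15.8%, 27.6% and 27.6% in genes of a mean FPKM of 5 to 20. These shares describe genes, which are not replicates, and FPKM itself divides by transcript length. The median 3′ UTR was 1323 bases in genes at least 2-fold higher, 1106 in those at least 2-fold lower and 894 in the others. Per kilobase of 3′ UTR, the AU-rich pentamer ATTTA stood at 1.85, 1.96 and 1.84 in these classes and the Pumilio motif TGTANATA at 0.254, 0.268 and 0.239, read on the transcript strand with overlapping matches counted. In RefSeq promoters of GRCm38.p6 (250 bases before to 50 after the start, 9573 tested genes matched), the GC box GGGCGG on either strand was present in 67.2% of genes at least 2-fold higher, 56.5% of those at least 2-fold lower and 62.3% of the others, against 35.9% of all 27025 promoters.

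**Figure D4:**
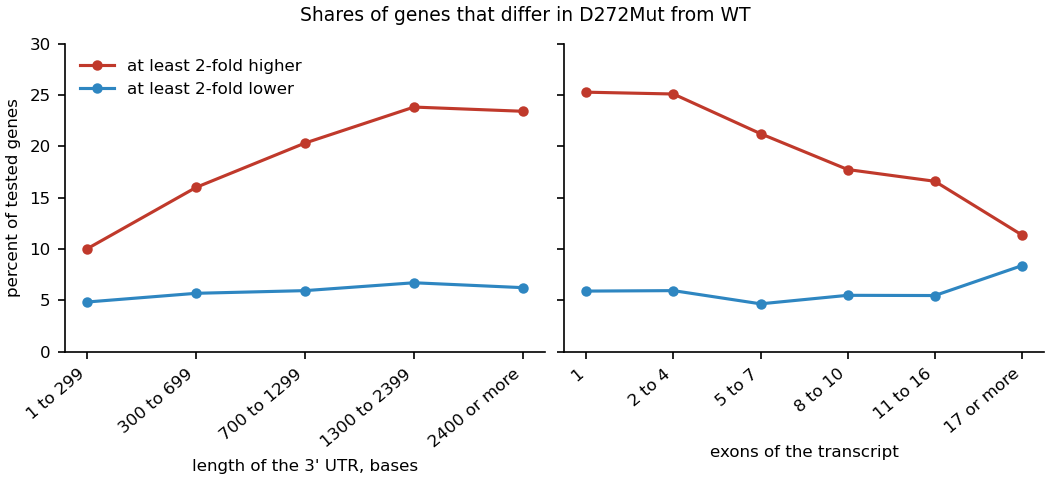
Percent of tested protein-coding genes at least 2-fold higher (red) or lower (blue) in D272Mut against WT, by length of the 3′ UTR in bases (left) and by number of exons (right). The share at least 2-fold higher goes from 10.0% in the shortest to 23.4% in the longest 3′ UTR class and from 25.3% at 1 exon to 11.4% at 17 or more.

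D272Mut was then set against GTMut, which asks where the point mutant and the gene trap differ. Of the 12668 genes, 39.2% were called between the mutants, 2504 higher (19.8%) and 2462 lower (19.4%) in D272Mut, and their libraries did not overlap for 37.2%. At least 2-fold differences were fewer, 201 higher (1.59%) and 188 lower (1.48%). Pearson's r across genes was 0.946 to 0.964 between libraries of the 2 mutants. The comparisons of each mutant with WT share the WT libraries. In them 8685 genes were called in both mutants, 180 of these in opposite directions, and 17 of the 180 were at least 2-fold changed in D272Mut.

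The targeted gene was among the largest differences, with Marf1 at 53.1 ± 1.0 FPKM in D272Mut and 1.43 ± 0.13 in GTMut (D272Mut over GTMut 4.48 ± 0.05, adjusted p = 1.84e-15). Bfar, also on chromosome 16 (chr16:13671856-13703612), encodes a regulator of apoptosis and overlaps 3110001I22Rik. Several tested genes, among them Rrn3 and Mpv17l, lie between Bfar and Marf1. The level of Bfar was 19.7, 18.6, 19 and 16.7 in WT, 97.8, 95.6, 98.5 and 91.4 in D272Mut and 5.46 ± 0.67 in GTMut. Bfar was thus above WT in every D272Mut library and differed by 3.91 ± 0.07 between the mutants. Prr18 was at 39.0, 43.7, 38.6 and 44.7 in WT and 24.1, 34.4, 34.8 and 29.1 in D272Mut but at 0.193 ± 0.020 in GTMut (4.71 ± 0.10). Tmem51 was at 3.41 ± 0.84 in WT, 11.1 ± 1.2 in D272Mut and 0.295 ± 0.15 in GTMut (3.22 ± 0.14). Further genes with a large excess over GTMut were Iqcf5 (2.52 ± 0.35), Sfta2 (2.46 ± 0.30) and Olfr206, which was listed at 0 in all 4 GTMut libraries. Against WT, Iqcf5 was lower in D272Mut (-1.04, adjusted p = 0.0161), but not called with a pseudocount of 0.1 (adjusted p = 0.105). Sfta2 did not pass against WT (0.43, adjusted p = 0.207), though it did without D272Mut replicate 2 (0.80, adjusted p = 0.00137). In D272Mut Olfr206 stood at 5.09, 4.86, 6.44 and 4.45.

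Pnpla3 was the reverse case, at 134 ± 8.9 FPKM in WT, 1.59 ± 0.42 in D272Mut and 137 ± 7.2 in GTMut (D272Mut over GTMut -5.75 ± 0.09, adjusted p = 7.89e-14). Draxin, a secreted guidance cue and Wnt antagonist, was at 5.38, 4.18, 5.77 and 5.06 in WT, 1.11, 0.893, 1.07 and 0.643 in D272Mut and 16.7 ± 2.9 in GTMut (-3.19 ± 0.12). It was therefore lower than WT in D272Mut while GTMut lay above WT. Prr15l stood at 9.25 ± 1.2, 1.73 ± 0.49 and 14.9 ± 1.4 in WT, D272Mut and GTMut, Pxdn, a peroxidase of basement membranes, at 11.6 ± 1.4, 5.92 ± 0.58 and 36.8 ± 1.3, and the ribosomal protein gene Rpl29 at 41.8 ± 4.1, 14.2 ± 1.6 and 74.6 ± 9.0. Each of these was lower in D272Mut than in WT and higher in GTMut. Rundc1, which overlaps Ptges3l, was higher than WT in D272Mut, at 6.66 ± 1.3 against 0.316 ± 0.10, but lower than in GTMut, at 55.5 ± 2.4 (-2.90 ± 0.11). Tagap, a GTPase-activating gene, was at 2.06 ± 0.32, 4.29 ± 0.35 and 28.9 ± 1.5 (-2.50 ± 0.08), and Gt(ROSA)26Sor, which overlaps Thumpd3, at 0.320 ± 0.30, 1.60 ± 0.52 and 11.2 ± 1.5 (-2.24 ± 0.18).

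**Figure D5:**
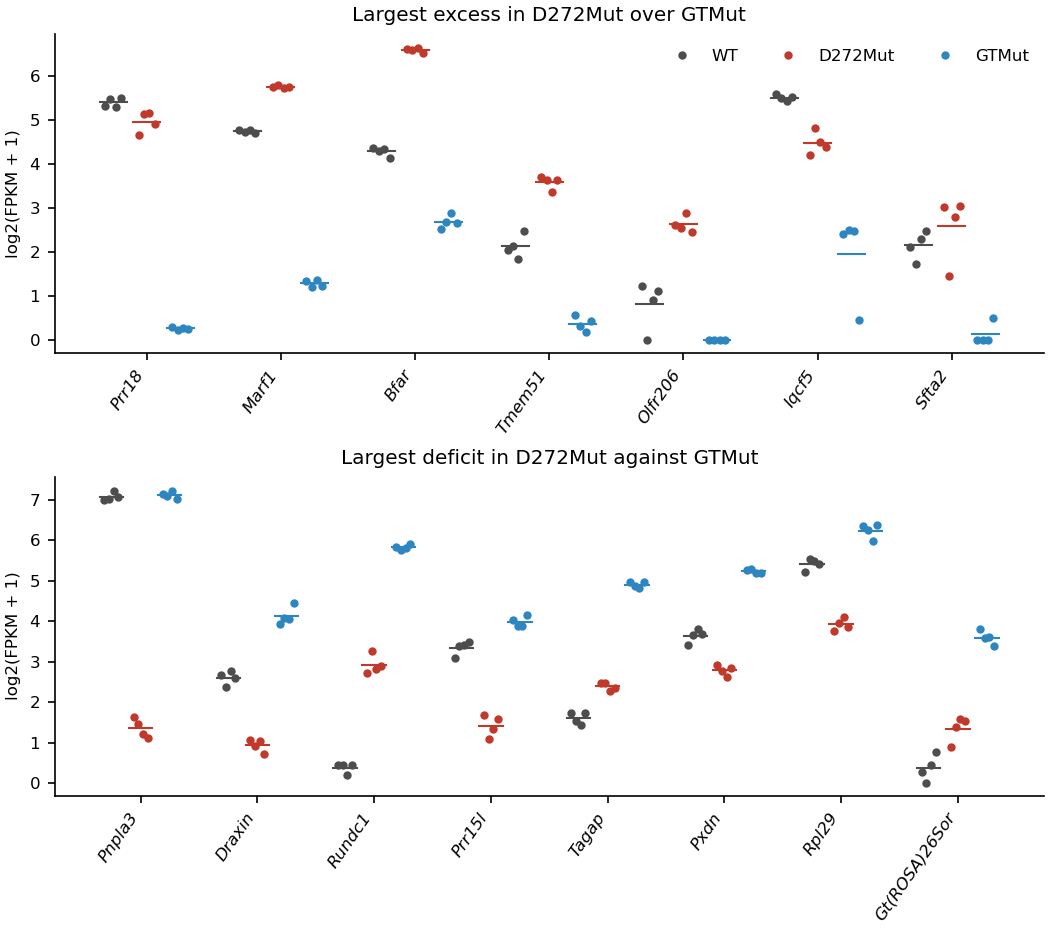
Level as log2(FPKM + 1) in each WT, D272Mut and GTMut library of 7 genes with the largest excess (top) and the 8 with the largest deficit (bottom) in D272Mut against GTMut; points are libraries and short lines are the mean of 4. Marf1 and Bfar lie above WT in D272Mut and below WT in GTMut, and Pnpla3 is low in D272Mut alone of the 3 genotypes shown.

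Several genes named above also differed between the mutants. Ppp2cb was lower in D272Mut, at 48.9 ± 4.0 FPKM, than in GTMut, at 92.3 ± 3.5 (-0.90 ± 0.09, adjusted p = 3.31e-06), and Fzd5 likewise at 116 ± 12 and 255 ± 5.3 (-1.13 ± 0.07). Id2 was at 43.7 ± 7.6 and 96.8 ± 7.5 (-1.14 ± 0.11), whereas Id3, at 684 ± 39 and 659.5 ± 35, was not called (0.05 ± 0.10, adjusted p = 0.707). Ier2 was higher in D272Mut, at 189 ± 9.5 against 76.6 ± 7.9 (1.30 ± 0.09), as was its fellow immediate early gene Junb, at 9.68 ± 0.66 against 2.29 ± 0.51 (1.71 ± 0.11), which was at 5.04 ± 0.65 in WT. Several falls were smaller in D272Mut. Aurkc was at 47.7 ± 1.5 in D272Mut and 10.8 ± 0.68 in GTMut (2.05 ± 0.05, adjusted p = 4.56e-12), Cdo1 at 22.6 ± 3.6 and 6.76 ± 1.8 (1.62 ± 0.14) and Gpr3 at 98.6 ± 11 and 63.0 ± 4.0 (0.63 ± 0.07). Bik fell further in D272Mut, to 2.93 ± 0.99 against 13.4 ± 1.8 in GTMut (-1.90 ± 0.17). For Cbx8, Hdac11, Yy1 and Spire1 the differences between the mutants were 0.08 ± 0.04, -0.04 ± 0.12, -0.28 ± 0.07 and 0.00 ± 0.04, of which that of Yy1 was called (adjusted p = 0.00502).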

How the data were processed

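Oocyte RNA was sequenced in 12 libraries as paired reads of 150 bases. Per the submitters' processing notes, reads were aligned to mm10 with TopHat2 2.0.13 and the authors computed FPKM with Cufflinks 2.2.1; the sources used here do not give the gene annotation. The deposited table also holds the authors' log2 ratios and their p-values and q-values from Cuffdiff. The labels conflict on the library method (Smart-seq2 amplification and a kit with random primers) and on whether oocytes or ovaries were lysed, which could alter coverage along transcripts. FPKM are not counts and absolute depth is unknown, so intervals and floors that need it are not given. Genes with an FPKM of at least 1 in any of the 8 WT and D272Mut libraries were tested with limma 3.58.1 (R 4.3.3, trend) on log2(FPKM + 1), in 1 fit of all 12 libraries with 9 residual degrees of freedom, and adjusted over 12668 genes. Marf1 and Ppp2cb were also tested by exact permutation. The procedure was also run on simulated data in which only a small part of the genes changed. In the real data 77.0% of genes were called, so that run does not check the calls or their balance here. The named genes were Marf1 and Ppp2cb, the 12 largest rises and falls against WT and the 8 largest differences each way from GTMut among called genes whose libraries do not overlap (without predicted genes and genes under 400 bases), and for each of 32 lists its role members with the 3 largest rises and falls and, for markers, the 3 most abundant genes. Genes named outside this rule, among them the 12 lost genes, were chosen after their values were seen. Some items are not reported here. Members and lists were chosen with earlier results of these data known. Loci and overlaps are from the authors' table, transcript features from GENCODE M21 (12537 tested genes matched) and promoters from RefSeq. Some genes share an identical locus there, such as Bfar and 3110001I22Rik. An overlap of loci therefore does not show that exons overlap or that reads were mixed. Replicate numbers were not used to pair the libraries in the main limma fit. Alternatives were another pseudocount, other filters, 2 other scalings, a fit of the 8 libraries, a replicate block and leaving out each replicate.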

Additional observations from a re-analysis of the deposited data

Results flagged for a closer look

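Among 412 groups of 4 libraries of the genes named, 23 held a library that stood apart from the other 3 by Dixon's criterion, 13 in WT and 10 in D272Mut. Chance alone gives about 5% of groups, and the count is near that share. The libraries are therefore listed by rule and not taken as true outliers. In WT, replicate 1 stood apart for Cdc25b at 34.6 FPKM, Fmo4 at 10.4 and Gsto2 at 7.95. WT replicate 2 stood apart for Bbc3 at 0.545, Cdk1 at 15, Fmn2 at 77.9 and Gpr3 at 151. WT replicate 3 did so for Abcc4 at 7.38, Mcl1 at 15.3 and Rundc1 at 0.160, and WT replicate 4 for Kitl at 1.95, Pdia4 at 32.7 and Usp17lc at 0.107. In D272Mut, replicate 1 stood apart for Cdk1 at 14.03, Drosha at 13.5 and Zfp395 at 95.5, and replicate 2 for Ago4 at 11.98 and Pmaip1 at 0.197. D272Mut replicate 3 did so for Aurkc at 45.4, Ensa at 39.02, Hdac11 at 59.03 and Lef1 at 5.64, and replicate 4 for Cyp19a1 at 5.39.

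For 12 named genes D272Mut and GTMut were called against WT in opposite directions, and the difference between the mutants was itself called by limma. For genes chosen on opposite sides of WT that call largely follows from the choice, so it is not a further test. D272Mut was above GTMut by a log2 difference of 4.48 for Marf1, 3.91 for Bfar, 3.22 for Tmem51, 2.62 for Olfr206, 1.71 for Junb, 0.46 for Ccnb1 and 0.36 for Mos. It was below GTMut for Draxin (-3.19), Prr15l (-2.56), Pxdn (-2.45), Rpl29 (-2.31) and Egr1 (-1.02). Both comparisons with WT share the WT libraries.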

How the results depend on the processing

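Counts of called genes stayed within 1.5 times under the alternatives with these exceptions. A mean FPKM of at least 5 left 2967 genes higher. The genes at least 2-fold lower numbered 1348 with a pseudocount of 0.1 and 1544 after quantile normalization, and with a pseudocount of 0.1 450 genes were at least 2-fold higher and 303 at least 2-fold lower in D272Mut than in GTMut. Of 3023 values of named genes 3002 kept direction and call, 5 lost the call, 8 gained it and 8 changed sign. After median-ratio rescaling Cdc20 stood at 0.081 and Cdc25b at 0.067, and after quantile normalization Figla stood at -0.10, Gdf9 at 0.14 and Tpx2 at -0.13. Leaving out each replicate, Tpx2 ranged from -0.030 to 0.035. The cause of these shifts was not tested. Of 960 list counts 931 stayed within 1.5 times.

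With the replicate block 4611 genes were higher and 5088 lower against WT, and 2389 higher and 2388 lower against GTMut. Deviations of same-numbered WT and D272Mut libraries had correlations of 0.062, 0.069, -0.081 and 0.094, and for replicates 1 and 4 the best match had the same number. Same-numbered WT and GTMut libraries gave -0.42, -0.30, 0.041 and 0.00086. These correlations cannot decide whether the numbers pair libraries, for example by day or litter.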

Other observations

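Gene families were also counted by the start of their symbol, a grouping chosen after the data were seen. Zbtb genes, which encode zinc finger proteins with a BTB domain, were higher in 30 and lower in 3 of 37 tested, with a median log2 fold change of 0.81 (25 and 5 after quantile normalization, 31 and 2 after median-ratio rescaling). Zbtb5 was at 1.10 FPKM in WT and 70.9 in D272Mut on average (5.11). Trim genes, which encode RING finger proteins, were higher in 24 and lower in 8 of 38. Zfp genes were higher in 136 and lower in 102 of 286, and quantile normalization gave 115 and 128. Among the families more often lower, Cep genes of centrosomes were lower in 18 and higher in 10 of 33.

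Genes around Marf1 on chromosome 16 were called about as often as all genes. Within 1 Mb on either side 5 were higher and 7 lower of 15 tested (80%), and within 5 Mb 30 were higher and 30 lower of 81 (74.1%).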
